A study of Mus musculus with 9 samples.

Results

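The 1742 probes described here are the Agilent 60-mers whose names begin with A_30_P, the part of the mouse expression array that its maker designed against long intergenic non-coding RNAs, as far as they are kept in the deposited series table and without the probe for C130026I21Rik. They are 1742 of the 30170 probes of that table and fall on 526 of its 21749 Ensembl genes. The array itself carries 16251 probes of this series, so 14508 of them are absent from the table and enter only the closing observations, apart from 3 called probes given beside 8030474K03Rik, Dancr and Snhg15. Signal was compared between mouse embryonic stem cells (mESCs) with wild-type Ring1B (WT), without RING1B (Ring1B-/-, KO) and homozygous for the I53A mutation (I53A), to ask which of these transcripts depend on the RING1B protein and which on its enzymatic activity.

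All 9 samples were E14Tg2a mESCs, a male line of strain 129P2/OlaHsd, grown in serum with LIF and without drug treatment. WT cells were the parental line, KO cells lacked exon 3 of both copies of Rnf2, the gene for RING1B, and in I53A cells both endogenous copies encoded RING1B with an alanine in place of the isoleucine that contacts the E2 enzyme. Each group had 3 samples, with 1 Cy3 single-colour array per sample. The mutants were made by gene targeting and selection of correctly targeted clones, the deposited table gives its 3 KO columns 1 common name (KO_G6), and whether the 3 samples of a mutant came from 1 clone is not given in the sources used here, so clone and mutation cannot be told apart. The methods call the 3 samples of a group biological replicates without saying whether they were separate cultures, and p-values speak only to the variation among these 9 arrays, part of which may be technical. An array had 45.4% to 57.5% of the table's probes well above background. The arrays lay on 2 slides, each of which held all 3 groups. Embryonic stem cell markers were all detected (9 of 10 listed genes were measured, above background on all 9 arrays, with an array median between 10.35 and 12.45), and 1 of them, Sox2, was called lower in KO (log2FC −1.03, limma adjusted p 0.0425). Of 8 fibroblast markers, 3 to 5 were above background on an array, the collagens Col1a1, Col1a2 and Col3a1 on all of them, while Lum, Postn and Pdgfra were above background on none. None of the 8 was called in either mutant, although Col1a2 was lower in KO with an adjusted p under the threshold (log2FC −0.98, limma adjusted p 0.0255). The part of the Sox2 and Col1a2 differences in the results below was not tested. In bulk RNA such as this, fewer cells of a type and less RNA per cell cannot be told apart. Rnf2 had a single probe, whose position relative to the deleted exon is not known, with a log2FC of −0.57 (limma adjusted p 0.288) in KO, so it does not check the labels.

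Long non-coding RNAs are transcripts without a long open reading frame that are usually spliced and polyadenylated like messenger RNAs. Some act in cis on their neighbours, such as Xist on the X chromosome or the transcripts of imprinted clusters, some build nuclear bodies, such as Neat1, and others are by-products of promoters or hosts of small nucleolar RNAs. RING1B is the core subunit of Polycomb repressive complex 1 (PRC1), which marks histone H2A with ubiquitin and holds developmental genes silent in mESCs, often at promoters rich in CpG.

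Does the name of the probe series hold? By RefSeq (GRCm38.p6), 172 of the 526 genes were non-coding (619 probes, 35.5% of the 1742), 215 were protein coding (749 probes, 43.0%) and 22 were pseudogenes (41 probes). The other 117 (333 probes) could not be matched to a single RefSeq gene, 109 having no candidate and 8 several, and are called unmatched here. The label therefore does not hold for the whole set, and the classes are given separately. Where both strands were known and the gene had been named by symbol or accession, 707 of 724 probes (97.7%) lay in a designed region on the strand of their gene. Most genes had several probes: 346 had 3 or more, 202 had exactly 3, and the largest number was 20. Probes of 1 gene often share bases, and counts of probes are not counts of independent measurements. Among the 1742 probes 47 pairs shared at least 40 bases, always within 1 gene, and 76 pairs joined such a probe with a probe of another series, 32 of which had the same 60 bases.

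The probes of the non-coding RNAs on which the results turn are shown first, 5′ to 3′, in lower case, with bases in capitals that a probe shares with another A_30_P probe of the same gene. H19 is the imprinted, maternally expressed RNA of the Igf2 locus. Its 5 probes share no stretch of bases:
H19 probe A_30_P01021588: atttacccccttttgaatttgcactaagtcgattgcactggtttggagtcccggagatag
H19 probe A_30_P01025068: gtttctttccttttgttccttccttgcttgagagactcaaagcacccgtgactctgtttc
H19 probe A_30_P01026972: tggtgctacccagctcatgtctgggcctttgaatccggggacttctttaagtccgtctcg
H19 probe A_30_P01028827: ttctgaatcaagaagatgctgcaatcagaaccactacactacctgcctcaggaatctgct
H19 probe A_30_P01028007: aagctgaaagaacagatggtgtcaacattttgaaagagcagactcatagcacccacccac

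Gm2694 is a long non-coding RNA that starts beside Cbln1, the gene of a secreted synaptic protein. Its 5 probes follow each other along 180 bases in the order given, each sharing bases with the next:
Gm2694 probe A_30_P01021540: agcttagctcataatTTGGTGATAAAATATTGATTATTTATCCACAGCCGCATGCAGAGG
Gm2694 probe A_30_P01029453: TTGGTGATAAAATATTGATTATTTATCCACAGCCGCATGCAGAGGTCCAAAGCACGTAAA
Gm2694 probe A_30_P01022123: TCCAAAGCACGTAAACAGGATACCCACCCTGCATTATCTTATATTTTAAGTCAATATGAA
Gm2694 probe A_30_P01024798: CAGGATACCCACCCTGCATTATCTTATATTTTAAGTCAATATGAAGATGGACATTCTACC
Gm2694 probe A_30_P01024770: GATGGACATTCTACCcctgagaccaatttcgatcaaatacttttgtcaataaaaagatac

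Platr22 is a pluripotency-associated transcript, and Gm5091 a long non-coding RNA for which no role is stated here. Each had a single called probe, and neither of these shares bases with another probe of its gene:
Platr22 probe A_30_P01032405: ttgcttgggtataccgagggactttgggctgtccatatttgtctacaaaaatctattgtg
Gm5091 probe A_30_P01030136: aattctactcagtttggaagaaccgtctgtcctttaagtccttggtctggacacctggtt

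Fewer of these probes were above background than of the rest of the table. On the 3 WT arrays 46.1%, 35.2% and 41.4% of the 1742 probes were well above background by the scanner's flag, against 54.2%, 46.0% and 51.2% of the 28427 other probes. The KO arrays gave 47.4%, 44.7% and 38.5%, and the I53A arrays 45.9%, 41.6% and 47.8%. The groups overlapped, and neither KO nor I53A differed from WT beyond the spread between arrays (KO 43.5% ± 4.54 against WT 40.9% ± 5.47, mean ± SD, n = 3, exact two-sided permutation p 0.6, and I53A 45.1% ± 3.15, p 0.4, where 3 arrays against 3 cannot go below 0.1). Probes of non-coding genes (37.9% ± 5.98 in WT) and of genes without a RefSeq match (31.7% ± 4.51) lay under those of coding genes (46.2% ± 5.73) on every array, and the 41 pseudogene probes were the most often detected (65.0% ± 3.73). Over all arrays, 684 of the 1742 probes (39.3%) were above background on none, 498 (28.6%) on all 9, and 1058 (60.7%) on at least 1. The corresponding shares among the other probes were 31.9%, 40.8% and 68.1%.

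**Figure D1:**
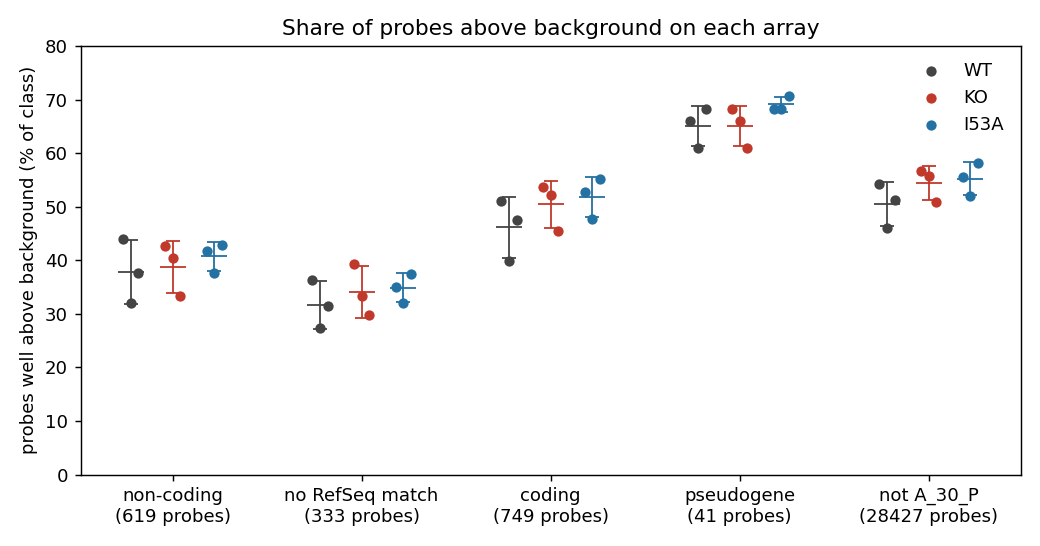
Share of probes well above background (% of the class, y axis) on each array, by class of gene on the x axis. Points are the 3 arrays of a group, bars the mean ± SD. Non-coding and unmatched genes sit between 27.3% and 43.9%, on each array lower than coding genes (39.9% to 55.1% over the arrays), with WT, KO and I53A overlapping in these classes.

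Few of these transcripts differed between KO and WT, and they did so in both directions. With limma (Benjamini-Hochberg adjusted p under 0.05 over all 30170 probes and more than 2-fold), 30 of the 1742 probes, of 17 genes, were called higher in KO than in WT, or 1.72%, against 2.73% of all tested probes. A further 20 probes, of 15 genes, were called lower, or 1.15%, against 1.11% of all tested. The median log2FC was −0.05 over the 1742 probes and −0.02 over the other probes. Non-coding genes supplied 11 of the higher probes (4 genes: H19, Gm2694, Gm5091 and Dancr) and 2 of the lower ones (Platr22 and 2610037D02Rik), unmatched genes 5 and 3, coding genes 14 (8 genes) and 15 (10 genes), and pseudogenes none (with limma, an unadjusted p under 0.05 was reached by 8 of their 41 probes upwards, 19.5% against 9.79% of the 28427 other probes, and by 1 downwards, 2.44% against 7.78%). As shares of their class, 1.78% of the non-coding, 1.5% of the unmatched and 1.87% of the coding probes were called higher, against 2.73% of all tested. The shares called lower were 0.323%, 0.901% and 2.0%, against 1.11%. For the genes that were higher, all 3 KO arrays were above background at 24 of the 30 probes. At 1 higher and 4 lower probes neither WT nor KO was above background on any array, so their log2FC compares background signals. A further 40 probes rose and 45 fell by more than 2-fold in the means without passing the adjusted p, and 33 of each were above background on some array.

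The 50 called probes had the same sign on both slides. On slide 1 (WT 1, WT 2, KO 2, KO 3) 48 of them exceeded 2-fold and on slide 2 (WT 3 and KO 1) 42 did. With slide as a block 31 probes were called higher and 20 lower, and a fit to the slide 1 arrays by themselves called 11 and 3. The number of calls was 28 without WT 1, 28 without WT 3 and 31 without KO 3, of which 26, 26 and 30 were among the 50.

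**Figure D2:**
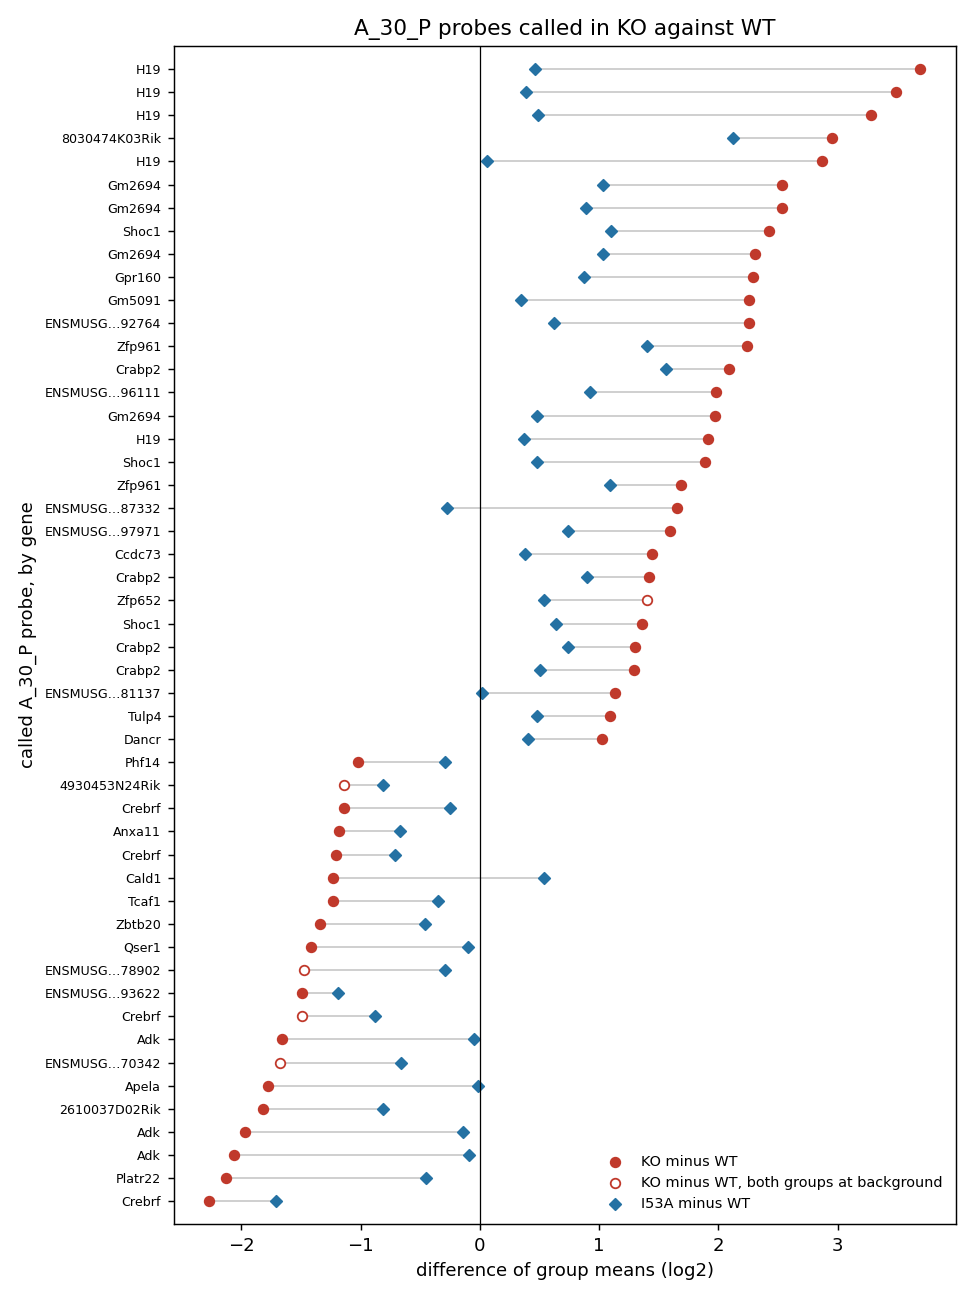
Difference of group means (log2, x axis) for the 50 A_30_P probes called in KO against WT, 1 row per probe labelled by gene. Circles are KO minus WT, open where WT and KO were above background on no array, and diamonds are I53A minus WT. Both differences use the same WT arrays, and the rows were selected by the KO values. KO values run from −2.27 to 3.69, and the diamonds lie nearer to 0 on all rows, from −1.71 to 2.12.

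H19 rose most. The gene lies at chromosome 7, 142575530 to 142578146 (GRCm38). Its 5 probes were all called in KO, and none in I53A. The probe with the largest change read 3.55, 3.90 and 4.53 in WT, 7.68, 7.59 and 7.77 in KO, and 4.70, 4.34 and 4.30 in I53A. The lowest KO array lay 2.89 log2 units above the highest of the others, and WT and I53A overlapped (log2FC 3.69, SE 0.27, limma adjusted p 6.94e-05 in KO). WT was not above background on any array by the flag, yet its signals lay above the limits used for bounds (3.2, 3.81 and 4.02). The 12.9-fold change is therefore the plain ratio of the means and not a lower bound. Normexp background correction left a log2FC of 1.56, still called. The brightest H19 probe, A_30_P01028007, read 6.16, 5.49 and 5.78 in WT, 8.03, 7.69 and 7.44 in KO, and 6.48, 6.38 and 5.67 in I53A (log2FC 1.91, SE 0.29, limma adjusted p 0.00536). It was the only one above background in most WT samples (2 of 3), and its log2FC was the smallest of the 5, whose others lay between 2.87 and 3.69. The probe of another series on H19, which shares no stretch of at least 40 bases with these, had a log2FC of 3.03 in KO (limma adjusted p 0.00383). In I53A its log2FC was 1.17 (limma adjusted p 0.439), above background on 2 I53A arrays and no WT array. Its difference between KO and I53A, 1.87, was not called (limma adjusted p 0.0832). In I53A the 5 A_30_P probes differed from WT by 0.06 to 0.49 on the log2 scale. KO differed from I53A at each of them by 1.55 to 3.23, and all 5 differences were called.

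Gm2694 rose at 4 of its 5 probes. It lies at chromosome 8, 87472812 to 87525554 (GRCm38, + strand). The brightest probe read 7.41, 7.61 and 6.65 in WT, 9.75, 9.72 and 9.79 in KO, and 7.76, 8.35 and 8.23 in I53A. KO stood above both other groups without overlap, and I53A stood above WT on all 3 arrays without being called (log2FC 2.53, SE 0.29, limma adjusted p 0.001 in KO, log2FC 0.89, SE 0.29, limma adjusted p 0.339 in I53A). The difference between KO and I53A was called too (log2FC 1.64, limma adjusted p 0.0235). The next probe along the transcript, which shares 45 bases with it, had the same log2FC of 2.53 at a lower mean level (5.96 against 8.36 over the 9 arrays), and the probe after that one had 2.31. At the other end of the row, the first and second probes share 45 of 60 bases, yet the second, A_30_P01029453, read 5.86, 6.36 and 5.94 in WT, 8.24, 8.09 and 7.74 in KO, and 6.45, 6.37 and 6.79 in I53A, while the first, A_30_P01021540, was above background on no array and averaged 2.64, 2.62 and 2.64 in WT, KO and I53A. Only the 15 bases in lower case at its 5′ end set that probe apart from the others shown. A probe of another series on Gm2694 had a log2FC of 2.10 in KO (limma adjusted p 0.00168) and 0.47 in I53A.

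Gm5091 and Dancr were the other non-coding genes with a higher probe. Gm5091 (chromosome 17, 15231585 to 15240783, − strand) read 2.78, 2.87 and 3.29 in WT, 4.75, 5.15 and 5.81 in KO, and 3.71, 3.05 and 3.20 in I53A at its brightest probe, above background on 2 KO arrays and no other (log2FC 2.26, SE 0.31, limma adjusted p 0.00305, at least 2.95-fold). The KO arrays were all above the WT and I53A arrays. After normexp correction its log2FC was 0.55. Its other A_30_P probes were never above background. Dancr, a snoRNA host RNA known for keeping progenitors undifferentiated, had 12 probes, of which 1 was called (6.09, 6.08 and 6.04 in WT, 7.18, 7.07 and 7.03 in KO, and 6.17, 6.32 and 6.93 in I53A, log2FC 1.02, SE 0.24, limma adjusted p 0.0416). The other 11 ran from −0.66 to 0.58, and the brightest, with a log2FC of −0.46, did not pass. That single call was also lost in 12 of the 17 alternative analyses.

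**Figure D3:**
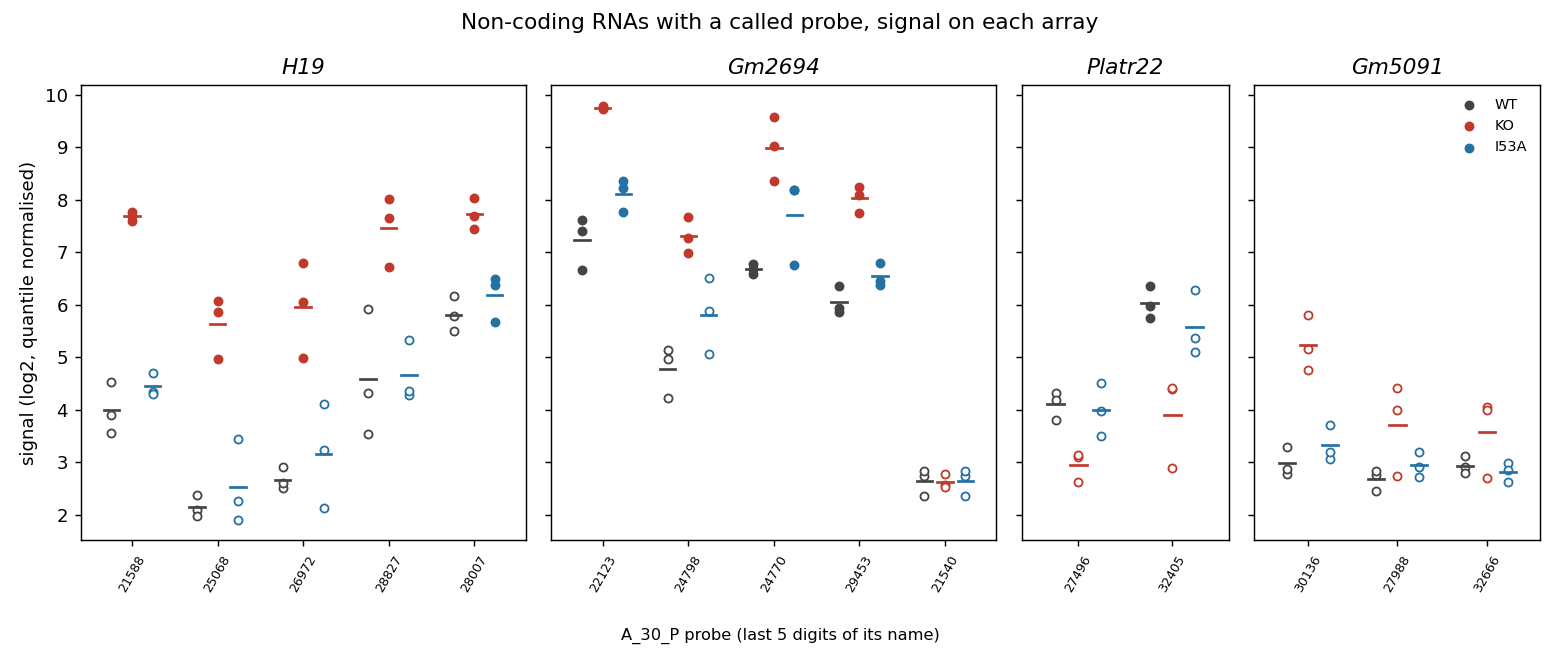
Signal on each array (log2, quantile normalised, y axis) for every A_30_P probe of H19, Gm2694, Platr22 and Gm5091, each named on the x axis by the end of its probe number. Points are arrays, lines group means, and points are filled where all 3 arrays of the group were above background. KO lies apart from WT and I53A at the 5 H19 probes, and the undetected Gm2694 probe, A_30_P01021540, averages 2.62 to 2.64 in the 3 groups.

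Platr22 and 2610037D02Rik were the non-coding genes that fell. Platr22 (chromosome 1, 136696211 to 136725728, + strand) read 5.97, 5.74 and 6.36 in WT, 2.88, 4.40 and 4.41 in KO, and 5.09, 5.37 and 6.27 in I53A. No KO array reached the lowest WT array, and I53A overlapped WT (log2FC −2.13, SE 0.44, limma adjusted p 0.0258, at least 3.64-fold lower in KO, which was above background on no array). The call was made in 11 of 17 alternative analyses and lost, among others, without WT 1, WT 2, WT 3 or KO 1, with the smallest log2FC, −0.66, after normexp correction. Its other probe was above background nowhere. At 2610037D02Rik (chromosome 15, 96190474 to 96197974) the called probe read 6.18, 5.42 and 5.49 in WT, 4.06, 3.72 and 3.85 in KO, and 5.36, 4.17 and 5.11 in I53A, above background on a single WT array (log2FC −1.82, SE 0.34, limma adjusted p 0.0148, at least 3.19-fold lower). The other 2 A_30_P probes of that gene were never above background, and a probe of another series on it had a log2FC of 0.04.

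A further non-coding RNA differed between the mutants without a call against WT in either. A930024E05Rik starts 47 bases from a start site of Kdm2b, whose protein brings a variant PRC1 to CpG islands, and read 7.34, 6.51 and 5.83 in WT, 5.62, 6.04 and 5.71 in KO, and 7.99, 7.49 and 7.31 in I53A. I53A stood above KO on every array (KO minus I53A: log2FC −1.80, SE 0.36, limma adjusted p 0.044), while the WT arrays overlapped with both. This was the only called probe of its 3 A_30_P probes, whose KO minus I53A values ran from −1.80 to −0.46. A probe of another series on the gene was above background on no array. The 2 brighter Kdm2b probes had log2FC values of 0.21 and 0.49 in KO and were not called.

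Among the genes without a RefSeq match, ENSMUSG00000092764 (a start site at chromosome 5, 149145723) rose from no WT array above background to all 3 KO arrays (5.24, 4.47 and 4.73 in WT, 6.78, 7.06 and 7.37 in KO, and 5.46, 5.00 and 5.82 in I53A, log2FC 2.26, SE 0.30, limma adjusted p 0.00233, 4.79-fold in the means). It was called in all 17 alternative analyses, with a log2FC of 1.03 after normexp correction, and differed from I53A by 1.64 (limma adjusted p 0.0278). ENSMUSG00000087332, which starts at chromosome 4, 99569499 and 86799 bases from Foxd3, read 5.35, 5.19 and 4.33 in WT, 6.48, 6.69 and 6.65 in KO, and 4.80, 5.09 and 4.13 in I53A, and its KO arrays stood above all others (log2FC 1.65, SE 0.33, limma adjusted p 0.0207). The call was made in 11 of 17 alternative analyses, with a log2FC of 0.79 after normexp correction, and was lost without WT 3, KO 1, KO 2 or KO 3. A second probe of it had a log2FC of 1.72 without passing. ENSMUSG00000093622 (chromosome 17, 70834663) fell in KO and read 9.71, 9.84 and 9.40 in WT, 7.96, 8.54 and 7.99 in KO, and 8.45, 8.42 and 8.50 in I53A. Its I53A arrays were also all under the WT arrays (log2FC −1.49, SE 0.24, limma adjusted p 0.00644 in KO, log2FC −1.19, SE 0.24, limma adjusted p 0.0856 in I53A), and KO did not pass the test against I53A (log2FC −0.29). The remaining unmatched genes with a called probe start at chromosome X, 169368188 (log2FC 1.13), chromosome 15, 99934812 (1.98, at least 2.93-fold), chromosome 17, 39843012 (1.59, with 1 of 6 probes called and the brightest at 0.06), chromosome 3, 149225745, and chromosome 2, 175172317, the last 2 being lower at signals that were never above background.

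Coding genes, with 749 of the 1742 probes, made up 29 of the 50 calls, and Crabp2 and Adk were called at most of their probes. Crabp2, the carrier of retinoic acid to its nuclear receptors, rose at 4 of 4 probes (log2FC 1.29 to 2.09). Its brightest probe read 10.17, 10.12 and 9.93 in WT, 11.26, 11.75 and 11.49 in KO, and 11.15, 11.02 and 10.75 in I53A, with I53A between WT and KO (log2FC 1.42, SE 0.22, limma adjusted p 0.00619 in KO, log2FC 0.90, SE 0.22, limma adjusted p 0.179 in I53A). A probe of another series with the same 60 bases as the weakest of the 4 gave 1.44 against 1.29. Adk, the kinase that turns adenosine into AMP, fell at 3 of 5 A_30_P probes and at both probes of other series (log2FC −1.88 and −1.50). The probe with the largest change read 8.75, 8.61 and 8.90 in WT, 6.43, 7.16 and 6.48 in KO, and 8.85, 8.39 and 8.76 in I53A. KO was under every other array, and the I53A arrays overlapped with WT (log2FC −2.06, SE 0.26, limma adjusted p 0.00183 in KO and log2FC −1.98, SE 0.26, limma adjusted p 0.00563 for KO minus I53A).

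8030474K03Rik, on the X chromosome, was the gene called in both mutants. Its only A_30_P probe in the series table read 5.43, 5.66 and 6.62 in WT, 8.71, 8.93 and 8.91 in KO, and 8.23, 7.80 and 8.03 in I53A, with all arrays of both mutants above WT (log2FC 2.95, SE 0.31, limma adjusted p 0.000598 in KO, log2FC 2.12, SE 0.31, limma adjusted p 0.0227 in I53A). The same 60 bases, deposited under another probe name, gave 2.76 in KO and 2.18 in I53A, both called. It was the single call among the 1742 probes in I53A (higher, 0.0574%, against 0.235% of all tested, and none lower, against 0.0928%), while at a limma p under 0.05 without adjustment 66 probes lay higher, 3.79% against 5.46% of the 28427 other probes, and 61 lower, 3.5% against 3.85%. The call in I53A was lost without WT 1, WT 2, I53A 1, I53A 2 or I53A 3 (log2FC between 1.88 and 2.23, adjusted p between 0.0836 and 0.107). Its KO call was kept in all 17 alternatives. A probe of the same designed region that is absent from the series table, A_30_P01020886, was called in KO (log2FC 2.82, limma adjusted p 0.00117 over all 55681 non-control probes) and not in I53A (log2FC 1.66, limma adjusted p 0.112). Since that table keeps only probes that map to transcripts of 1 Ensembl gene, signal at this probe is not assigned to the gene.

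Crebrf, a regulator of the transcription factor CREB3, had probes with different results. Of its 13 A_30_P probes 4 were called lower, with log2FC values from −2.27 to −1.14, and the other 9 ran from −1.21 to 0.98. Among the 4, A_30_P01023033 (log2FC −1.49) was above background on no array, so its value compares background signals. The called probe with the largest change read 7.67, 7.49 and 6.80 in WT, 4.50, 4.92 and 5.73 in KO, and 5.53, 5.00 and 6.31 in I53A, with I53A overlapping KO. All 4 called probes came from the same designed region (chromosome 17, 26911397 to 26917047 in mm9), in which the other 6 probes also had negative values, whereas the 3 probes of a second region (26911032 to 26912366) ran from −0.66 to 0.98. The probe of another series on Crebrf was at background, with a log2FC of 0.39. Shoc1, a meiotic crossover factor, rose at 3 of 10 probes, and Zfp961, a zinc finger gene, at 2 of 7, with both brighter probes of another series called as well. In 155 genes with 3 or more detected probes the SD of the log2FC among probes of 1 gene had a median of 0.35. In 16 of them at least 1 probe was called, in 3 every detected probe was (H19, Gm2694 and Crabp2), and in none were probes called in both directions.

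**Figure D4:**
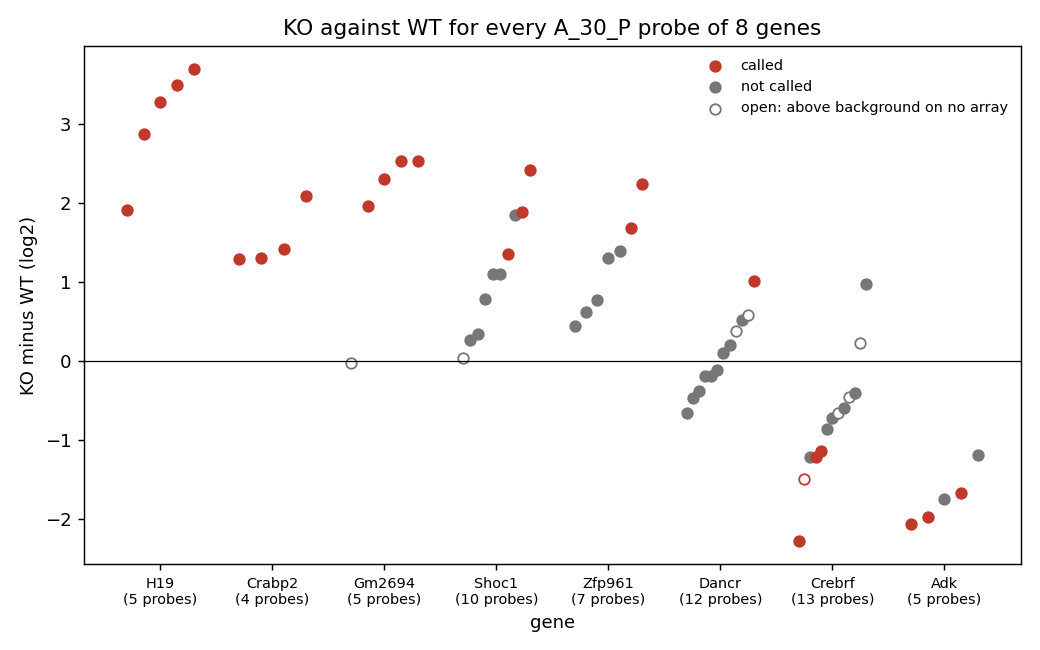
KO minus WT (log2, y axis) for each A_30_P probe of 8 genes (x axis). Red points were called, grey points were not, and open points of either colour were above background on no array. The H19 and Crabp2 probes were all called higher and 3 of 5 Adk probes lower, while the 12 Dancr probes lie on both sides of 0.

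Among the other coding genes, Apela, which encodes a secreted ligand of the apelin receptor, fell at 1 of 2 probes and read 7.56, 7.09 and 7.81 in WT, 5.15, 6.34 and 5.64 in KO, and 7.55, 7.20 and 7.66 in I53A. KO was under WT and I53A, which overlapped (log2FC −1.78, SE 0.33, limma adjusted p 0.0141). Cald1, the actin-binding protein caldesmon, read 7.66, 7.69 and 7.92 in WT, 6.57, 6.23 and 6.76 in KO, and 8.25, 8.33 and 8.29 in I53A, so KO fell under WT while I53A lay over it (log2FC −1.23, SE 0.22, limma adjusted p 0.0115 in KO and log2FC −1.77, SE 0.22, limma adjusted p 0.00417 for KO minus I53A). The 2 probes of other series on Cald1 had log2FC values of −0.36 and −0.05 and were not called. Gpr160, an orphan receptor, was called at 1 of 3 probes (log2FC 2.29, at least 1.55-fold, with WT above background on no array and KO on 1), as was its probe of another series (1.99). Ccdc73 (1.44), Tulp4 (1.09), Qser1 (−1.42, at least 2.44-fold lower), Zbtb20 (−1.34), Tcaf1 (−1.23, 2.35-fold lower in the means), Anxa11 (−1.18) and Phf14 (−1.02) had 1 called probe each, with no called probe of another series. The called probes of Zfp652, the one gene called on chromosome 11, and of 4930453N24Rik were at background in WT and KO. The 60 detected probes on chromosome 11 had a median log2FC of −0.03 in KO, and the 998 elsewhere −0.10. In I53A these medians were −0.12 and −0.01, and neither difference was tested.

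KO and I53A share their WT arrays, so their values are given side by side. The called probes were also selected by their KO values, which favours larger values in KO than in I53A. At probes selected in this way the shared WT arrays also favour the same sign in both mutants. The medians and sign counts below therefore cannot measure by how much the mutants differ or how far I53A follows KO. At the 30 probes called higher in KO the median log2FC was 1.98 in KO and 0.58 in I53A, with I53A over WT at 29 of them. At the 20 called lower it was −1.48 and −0.40, with I53A under WT at 19. The direct comparison of KO with I53A called 10 of the 1742 probes higher (0.574%, against 0.958% of all tested) and 7 lower (0.402%, against 0.368%). The 10 were the 5 H19 probes, 2 of Gm2694, Gm5091, ENSMUSG00000092764 and ENSMUSG00000087332. The 7 were 3 of Adk, Apela, Cald1, A930024E05Rik and an unmatched gene at background in all groups, which starts at chromosome 17, 31557125. For the other 35 probes called in KO, the difference between the mutants did not pass the test. Without KO 2, KO 3, I53A 1, I53A 2 or I53A 3 the number of calls was 8, 7, 7, 6 and 9 in place of 17.

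The nearest coding genes were compared next. Of the 311 non-coding, unmatched or pseudogene genes with a coding gene on their chromosome in the table, 246 had the nearest coding start site within 100000 bases. In KO 9 of these had a called probe, and at 1 of them (11.1%) the coding neighbour was called too, in the same direction. Of the 237 without a call, 21 (8.86%) had a called neighbour. The 1 pair was 2610037D02Rik and Arid2, a chromatin remodelling subunit, with start sites 3909 bases apart at the nearest. Ensembl start sites of 2610037D02Rik run from 96197974 to 96283608, beyond the RefSeq span given above. The distance therefore depends on the start site used. Of the Arid2 probes 1 fell (log2FC −1.56, limma adjusted p 0.00899) and the brightest did not change detectably (0.15, adjusted p 0.875). Gm2694 starts 219 bases from Cbln1, whose single probe was above background on no array (3.29, 3.62 and 3.46 in WT, 4.52, 5.30 and 3.01 in KO, and 4.05, 3.06 and 3.64 in I53A, log2FC 0.82, adjusted p 0.444). The nearest genes to the others were Tnnt3, a troponin (log2FC 0.54), for H19, Zfp281, a transcription factor of mESCs (−0.22), for Platr22, Usp46 (0.73) for Dancr, Foxd3, a regulator of pluripotency and neural crest (0.17), Tgif1, a homeodomain corepressor (−0.10), Uspl1 (−0.01) and Fam186a (−0.54), with none called. Dll1, a Notch ligand, was nearest to Gm5091 at 127607 bases (0.32). In I53A no gene of the 246 was called and 1 neighbour was. Across 162 pairs with both genes detected, Pearson's r of the log2FC was 0.02 in KO and −0.02 in I53A, as a description over genes measured on the same arrays.

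**Figure D5:**
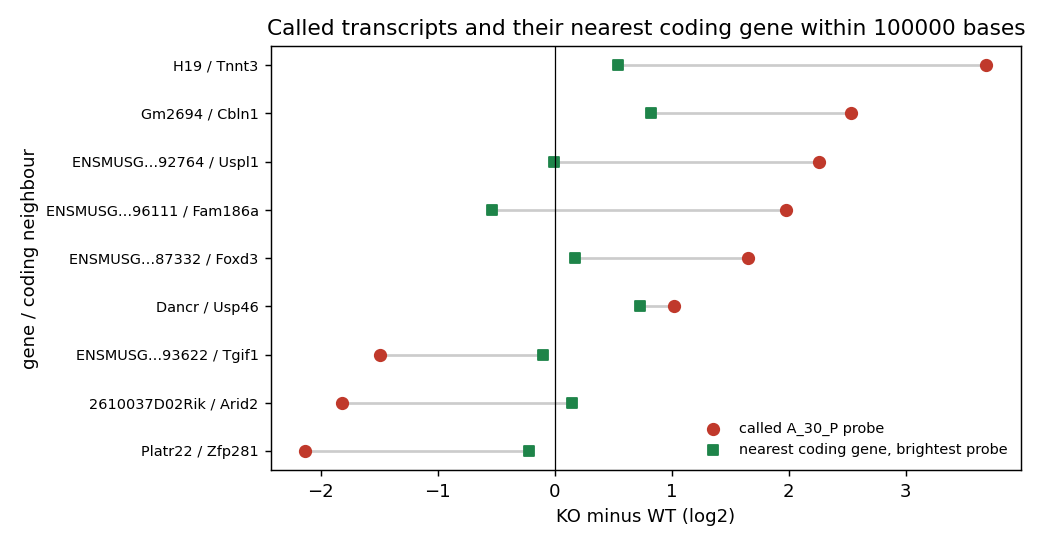
KO minus WT (log2, x axis) for the 9 non-coding or unmatched genes with a called probe (circles, the called probe with the largest change) and for the brightest probe of the nearest coding gene within 100000 bases (squares). The squares lie between −0.54 and 0.82.

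The probes were next set against those of other series on the same gene. In 357 genes with both kinds, the brightest of each were called in KO in 13 and 15 genes and both, in the same direction, in 4, with none opposed. Pearson's r of the log2FC across these genes was 0.32, and 0.39 across the 221 in which both probes were detected. For probes with the same 60 bases under different names, 16 pairs were detected, and their log2FC in KO differed by a median of 0.255 and at most 1.57, although they measured the same target on the same arrays. The pair at 1.57, of a gene without a RefSeq match, was above background on 4 and 5 of the 9 arrays. For Malat1, above background on all 9 at both, the values were −0.33 and 0.72. Over all 32 such pairs, detected or not, the mean log2 level differed by a median of 0.16 and at most 3.28. That largest difference was at Wdfy4, where the A_30_P probe was above background on 8 arrays and the other on none.

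Several lists of well-known long non-coding RNAs were followed at all of their probes. Of all tested probes 2.73% were called higher and 1.11% lower in KO, and 0.235% and 0.0928% in I53A. At these shares lists of this size can hold few calls or none, so an absent call does not set a list apart. Of 5 measured imprinted RNAs, H19 alone was called, and Rian (8 probes, log2FC −0.62 to 0.57 in KO), Mirg (7 probes, −0.86 to 0.62), Airn (3, −0.14 to 0.64) and A330076H08Rik (9, −0.60 to 1.56) were not. Rian and Mirg, from the Dlk1 and Dio3 cluster, were bright in every sample (the brightest Rian probe read 11.29, 11.36 and 11.09 in WT, 10.97, 10.66 and 11.10 in KO, and 11.30, 11.90 and 11.58 in I53A). The X inactivation centre RNAs Xist (5 probes), Tsix, Jpx and Ftx had no called probe in either mutant, with Xist at 5.96, 5.15 and 4.65 in WT and 5.73, 4.91 and 4.94 in KO at its brightest probe. Of the Hox cluster RNAs, Hotair was above background on no array, and Gm53, with all 3 probes detected, was not called (log2FC −0.05 to 1.65 in KO and −0.03 to 1.72 in I53A). None of Fendrr, Sox2ot, Pantr1 and Foxd2os, which lie beside developmental transcription factors, was called (their 18 probes ran from −0.55 to 1.23 in KO).

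Among 4 pluripotency-associated RNAs, Platr22 fell as described, and Platr20, Platr21 and 2610307P16Rik had no called probe in 20. Platr21 was detected at all 8 probes, with log2FC values between −0.21 and 0.66. Of 9 housekeeping and snoRNA host RNAs, detected in all cases, the single Dancr probe was the one call in 67 probes of the series table. Outside the table, a probe of the designed region of Dancr, A_30_P01031385, was called higher in KO (log2FC 1.73, limma adjusted p 0.0271 over all 55681 non-control probes), and so was A_30_P01020523 of the designed region of Snhg15, which read 7.41, 7.87 and 7.25 in WT, 10.54, 10.86 and 10.72 in KO, and 7.97, 8.29 and 8.03 in I53A (log2FC 3.20, limma adjusted p 6.2e-05). The Snhg15 probe of the table, above background on no WT array and 2 KO arrays, had a log2FC of 1.00 (limma adjusted p 0.195). The series table keeps only probes that map to transcripts of 1 Ensembl gene. Signal at the probes outside it is therefore not assigned to Dancr or Snhg15 here. Neat1, which scaffolds paraspeckles, read 9.31, 8.99 and 8.11 in WT, 7.74, 7.93 and 7.42 in KO, and 8.27, 7.44 and 7.90 in I53A at its brightest probe, lower in all KO arrays than in any WT array, but did not pass (log2FC −1.10, SE 0.34, limma adjusted p 0.112). Malat1 read between 9.64 and 10.76 on all arrays at its brightest probe (log2FC −0.59 in KO, adjusted p 0.237). Trp53cor1, Lncpint and Pvt1 had no call in 16 probes. The list medians in KO, taken over the brightest probe of each gene, were −0.01 for the imprinted, −0.39 for the X inactivation centre, −0.52 for the Hox cluster (Hotair and Gm53 alone), −0.17 for the developmental, −0.18 for the pluripotency, −0.17 for the housekeeping and −0.33 for the p53 and MYC list, against −0.14 over the brightest probes of all 526 genes.

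The CpG content of promoters, in which PRC1 targets are often rich, was counted in the RefSeq windows from 250 bases before to 50 after the start (the letters CG). The 3 non-coding genes called higher with a window (Gm2694 with 42, Dancr with 18 and Gm5091 with 12) had a median of 18, Platr22 had 6, and 131 non-coding genes without a call had a median of 13. Coding genes had medians of 21.5 (6 higher), 19 (10 lower) and 20.0 (159 not called), against 7.0 over 27025 RefSeq genes. The median GC content was 45% over these probes and 41.7% over all others.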

How the data were processed

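PolyA RNA of 9 mESC samples (3 WT, 3 KO, 3 I53A) was labelled with Cy3 and hybridised to 1 single-colour Agilent array each. Per the file headers, the deposited scan files hold spot intensity values from Agilent Feature Extraction, with the processed signal already background-subtracted and not normalised between arrays, beside flags for spots well above background. The authors also deposited log2 values for 30170 probes, made by averaging repeated probes, quantile normalisation in limma and a filter for probes that map to transcripts of 1 Ensembl gene (mm10). Columns with the authors' own fold changes and p-values were not used.

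Here control and outlier-flagged spots were dropped from the scan files, log2 processed signals of repeated probes were averaged, and all 55681 non-control probes were quantile normalised. limma 3.58.1 (R 4.3.3) was fitted to the 30170 probes with 1 mean per group and no block, and p-values were adjusted by Benjamini-Hochberg over all of them. Calls required an adjusted p below 0.05 together with a change of more than 2-fold. Array number limits the precision. Where the dimmer group was above background on no array, its arrays below their own detection limit were raised to that limit, and the fold is given as "at least". The limit of an array was the lowest signal of any probe well above background on it, and undetected probes could read above it. Such a bound therefore holds only for this limit and normalisation. Where no array lay below its limit, the fold is the plain ratio of the means. No bound is given where both groups were at background, and a log2FC printed there compares background signals. limma was also tested on simulated data with known changes.

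Probes were classed through RefSeq by symbol (9 genes), accession (262) or a strand-matched start site (138), and 117 genes stayed unmatched. Start sites are GRCm38, and designed regions mm9. Probe sequences were read from the deposited files. A coding gene was a neighbour if its start site was the nearest and within 100000 bases.

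The probes, gene lists and tests were chosen with earlier results of these data known. A gene was represented by its brightest A_30_P probe. Named were the 15 genes with the largest called increases and the 10 with the largest called decreases of these probes, every gene called in I53A, genes with 3 or more probes all called, every measured gene of the lists, and nearest coding genes. Genes described by another probe were chosen after their values were seen. Alternatives were 75th-percentile scaling, normexp background correction (offset 50, on median signals, since the files used here hold no mean signal), the deposited log2 columns, a filter for probes above background on at least 3 arrays, slide and replicate number as blocks, slide 1 alone, leaving out each array, and testing all non-control probes.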

Additional observations from a re-analysis of the deposited data

Results flagged for a closer look

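A_30_P probes outside the series table also carried signal, and they were not among the 1742 probes compared above. From 24% to 36.7% of these 14508 probes were well above background on an array, and 106 of them were called in KO against WT by limma, adjusted over the 55681 non-control probes, 59 higher (0.407%, against 1.78% of all 55681) and 47 lower (0.324%, against 0.614%). In I53A against WT 5 were called, 1 higher (0.00689%, against 0.154%) and 4 lower (0.0276%, against 0.0431%). The probe with the largest increase, A_30_P01027120, designed on chromosome 1, 87343550 to 87362900 (mm9), read 3.20, 3.26 and 2.82 in WT, 6.45, 6.69 and 7.41 in KO, and 3.31, 2.78 and 2.83 in I53A (log2FC 3.76 in KO, limma adjusted p 7.99e-05). It was above background on all KO arrays and on no other, so its increase is at least 9.03-fold at the detection limits used here.

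KO and I53A differed from each other at 17 probes of 10 genes by the direct limma comparison. As KO minus I53A on the log2 scale, at the probe with the largest difference, H19 differed by 3.23, ENSMUSG00000087332 by 1.93, Gm5091 by 1.92, ENSMUSG00000092764 by 1.64 and Gm2694 by 1.64. In the other direction Adk differed by −1.98, A930024E05Rik by −1.80, Cald1 by −1.77, Apela by −1.76 and ENSMUSG00000013562 by −1.38, the last at signals that were above background on no array.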

How the results depend on the processing

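The number of KO calls, 50 in the report, was 14 after normexp correction (14 of them among the 50), 14 on slide 1 alone (13 among the 50) and 28 to 50 with 1 array left out (26 to 48 among the 50). The other alternatives gave 42 to 53 (40 to 50 among the 50). The I53A count of 1 became 3 with dim probes left out (adding a Crabp2 and an unmatched probe), 2 with the slide block, 0 on slide 1 alone, and 0 to 1 with 1 array left out. For KO against I53A, the number of calls, 17 in the report, was 6 after normexp, 2 on slide 1 alone, and 6 to 15 with 1 array left out, and 14 to 19 otherwise, apart from the replicate block. Replicate numbers did not pair the samples (deviations of same-numbered arrays correlated between −0.369 and 0.315). With the replicate block the counts were 42 for KO, 0 for I53A and 8 for KO against I53A. Over the 50 called KO probes, 621 of 840 alternative values stayed called, 219 were no longer called and 0 reversed. The causes were not tested. With detection read as a signal above the lowest limit of an array instead of the flag, the share of probes rose to 69.6% in WT, 73.5% in KO and 70.4% in I53A, while the difference from WT moved from 2.6 to 3.9 percentage points in KO and from 4.2 to 0.8 in I53A, within the spread between arrays. With neighbours within 50000 or 500000 bases, 1 called gene still had a called neighbour in KO and 0 in I53A. Probes at background set a limit: 684 of 1742 were not well above background on any array.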
